A study of Homo sapiens with 8 samples.

Results

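The plasminogen activators and their serpin inhibitors were examined as 9 genes of the 17825 genes that could be named on the array. They were SERPINB2, PLAT, PLAU, PLAUR, SERPINE2, SERPINB8, ANXA2, F3 and TFPI2, each with every probe that could be named for it, 16 probes in all. The genes were picked by name from earlier results of these same arrays, so the contrast between the groups helped to choose them. The differences of the 9 genes between the groups are therefore descriptions, given without a test.

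The study profiled 8 RNA samples of 1 human cell line on Illumina BeadChips, which read each transcript as the brightness of a bead carrying a probe. The line, MDA-LM2-shTARBP2, is a lung-metastatic derivative of the MDA-MB-231 breast cancer line that carries a hairpin against TARBP2, an RNA-binding protein that also works with the microRNA-processing enzyme Dicer. The 4 shZNF395 arrays hold RNA of these cells after lentiviral transduction with a hairpin against ZNF395, a zinc finger transcription factor, and selection for the hairpin. The 4 shControl arrays hold RNA of the same TARBP2 hairpin line transduced with the shControl virus and selected in the same way. The design text calls the controls mock-transfected, whereas the labels call them shControl, and the labels are followed here. RNA was taken at 48 h, counted from the transfection in the labels. All 8 samples thus share the TARBP2 hairpin, no line without it was analysed here, and the labels do not say how many hairpins against ZNF395 were used or whether cells were cloned. Nothing in the labels says that the 4 samples of a group came from separate cultures, so the errors below measure the spread between arrays, which may be technical.

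Plasminogen circulates as an inactive protein and is cut to plasmin, a broad protease of fibrin and of the matrix around cells. The cut is made by tissue plasminogen activator (PLAT), which works best on fibrin, and by urokinase (PLAU), which works on the cell surface bound to its receptor PLAUR. Serpins such as SERPINE2 and SERPINB2 inhibit these activators by trapping them in a covalent complex. Annexin A2 (ANXA2), with its partner S100A10, docks plasminogen and PLAT on the cell surface. Tissue factor (F3) starts coagulation, whose product fibrin is what plasmin dissolves, and TFPI2 is a Kunitz-type inhibitor of plasmin secreted into the matrix. In breast cancer, urokinase is known as a marker of outcome.

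The promoter windows of 5 members are shown because they carry the same short element and belong to members with wide, narrow and no separation of the groups in the values below. Each is the 250 bases before the annotated start in RefSeq, build GRCh38.p14, read 5′ to 3′ on the strand of the gene, and the capitals mark TGANTCA, the AP-1 type element.
SERPINB2, chr18:63887455-63887704, plus strand: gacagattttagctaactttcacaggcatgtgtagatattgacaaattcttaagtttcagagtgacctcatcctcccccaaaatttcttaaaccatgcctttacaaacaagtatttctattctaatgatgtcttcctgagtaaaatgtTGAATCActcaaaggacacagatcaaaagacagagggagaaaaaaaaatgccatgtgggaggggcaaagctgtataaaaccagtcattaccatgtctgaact
TFPI2, chr7:93890754-93891003, minus strand: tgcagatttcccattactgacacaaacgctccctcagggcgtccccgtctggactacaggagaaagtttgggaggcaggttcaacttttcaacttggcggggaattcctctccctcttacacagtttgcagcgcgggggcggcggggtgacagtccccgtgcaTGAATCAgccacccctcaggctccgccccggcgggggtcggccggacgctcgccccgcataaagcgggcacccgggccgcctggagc
F3, chr1:94541760-94542009, minus strand: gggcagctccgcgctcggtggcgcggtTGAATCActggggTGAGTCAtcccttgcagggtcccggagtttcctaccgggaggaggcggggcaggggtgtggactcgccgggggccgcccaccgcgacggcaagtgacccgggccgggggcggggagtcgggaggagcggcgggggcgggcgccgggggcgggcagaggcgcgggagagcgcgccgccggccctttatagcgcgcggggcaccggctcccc
ANXA2, chr15:60397987-60398236, minus strand: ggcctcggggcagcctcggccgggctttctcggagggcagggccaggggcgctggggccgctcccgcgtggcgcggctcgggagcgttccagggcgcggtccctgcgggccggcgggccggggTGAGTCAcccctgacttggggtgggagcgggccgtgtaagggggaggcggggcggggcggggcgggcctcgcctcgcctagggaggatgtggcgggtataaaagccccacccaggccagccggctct
PLAUR, chr19:43670170-43670419, minus strand: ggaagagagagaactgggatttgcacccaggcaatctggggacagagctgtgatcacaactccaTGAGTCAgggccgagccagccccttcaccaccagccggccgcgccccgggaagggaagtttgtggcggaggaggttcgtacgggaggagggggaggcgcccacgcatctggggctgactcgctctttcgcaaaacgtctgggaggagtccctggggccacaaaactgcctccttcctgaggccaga

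TGANTCA, searched on both strands, was present in 6 of the 8 members whose windows were searched, namely ANXA2, F3, PLAUR, SERPINB2, SERPINB8 and TFPI2. Over all RefSeq genes with such windows it was present in 2200 of 27305, or 8.06%. The first base of the element lay 102 bases before the start in SERPINB2, 87 in TFPI2, 127 in ANXA2 and 186 in PLAUR. F3 carried it at 223 and at 210 bases, and SERPINB8 at 185 and 28 bases. PLAU and SERPINE2 had no match in either of their 2 windows. TATAAA, the TATA box core, was found in 4 members (ANXA2, F3, SERPINB2 and SERPINB8), in 4 of the 10 member windows, and in 10.7% of all windows. It began 30 bases before the start in SERPINB2 and 31 in ANXA2. TATAAA too was searched on both strands. In F3 the only match, at 28 bases, lay on the strand opposite to the gene. In SERPINB8 the matches began further off, at 142 bases on the opposite strand and at 140 bases on the strand of the gene. GGGCGG, the GC box, was found in 5 members (ANXA2, F3, PLAU, SERPINE2 and TFPI2) and in 46.2% of all genes. The NF-kappaB consensus was found in 1 member, TFPI2, and in 11.8% of all genes. No match of one of these motifs overlapped a match of another. A match is a description of the letters and not evidence of a bound factor, and a window without one says nothing of sites elsewhere.

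**Figure D1:**
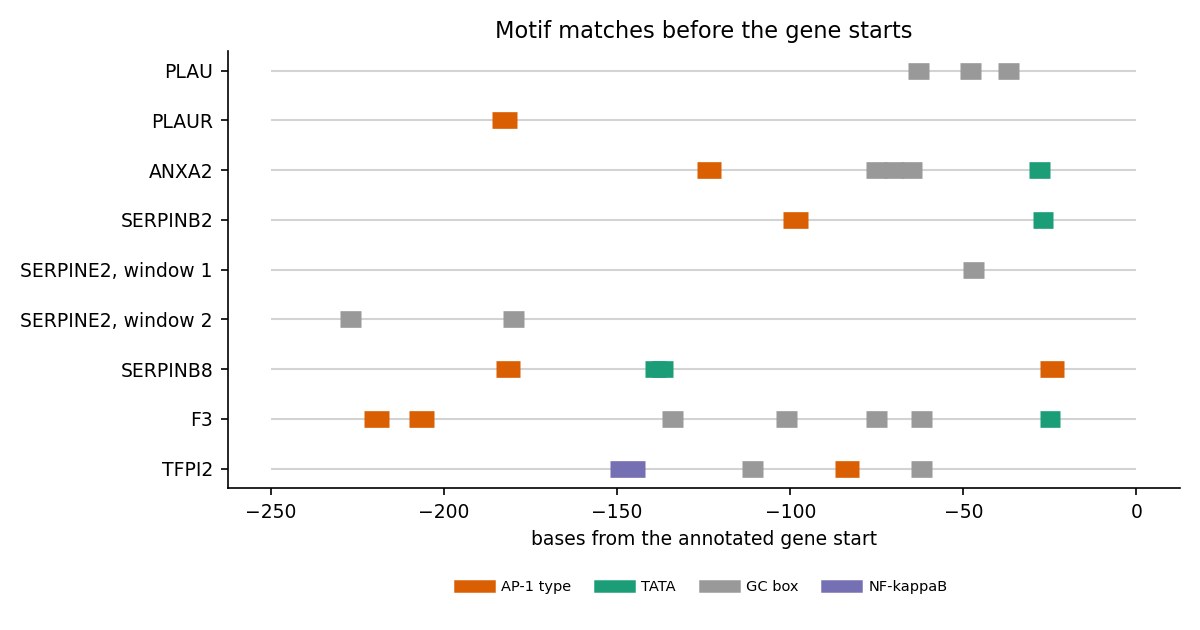
Matches of 4 motifs in the promoter windows of the members, by distance in bases before the annotated start (x axis), 1 row per window, with colour for the motif. The AP-1 type element appears in the windows of 6 members, between 223 and 28 bases before the start, and the windows of PLAU and SERPINE2 show none; a window with no match of any motif is not drawn.

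The hairpin target itself was lower in shZNF395 than in shControl cells. ZNF395 gave a log2 normalized intensity of 9.06, 8.99, 9.22 and 9.06 on shZNF395 arrays 1 to 4, against 9.89, 9.81, 9.80 and 10.05 on shControl arrays 1 to 4. The groups did not overlap, with a log2 difference of -0.80 for ZNF395 (limma, SE 0.077, adjusted p = 1.01e-05). TARBP2, the target of the hairpin that both groups carry, was read by a pair of probes that were 0.21 (adjusted p = 0.0193) and 0.06 (adjusted p = 0.589) higher on the log2 scale in shZNF395 than in shControl cells. All intensities below are log2 values after background correction and quantile normalization, and probes of different genes are not comparable in level. The median raw signal per array lay between 53.2 and 57.1, and 16476 to 17406 of the 47323 probes were detected per array. Arrays of a group correlated at 0.9931 or more, and no pair across the groups exceeded 0.9745. Of the 17184 probes kept, 4356 (25.3%) were called higher and 5156 (30.0%) lower in shZNF395 cells (limma, Benjamini-Hochberg adjusted p under 0.05, no limit on fold), so a called difference is common in this contrast.

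The line was checked against marker genes. All 6 mesenchymal markers of such cells were kept, with a summed linear signal of 43100 to 44800 on shZNF395 arrays and 45800 to 47100 on shControl arrays. By their brightest kept probe CAV1, AXL and FOSL1 were called lower in shZNF395 cells, with log2 differences of -0.27, -0.25 and -0.47. EGFR was called higher with 0.24, and VIM and CD44 were not called. A dimmer kept probe of CD44 (ILMN_2348788) was called lower without overlap (-0.28, limma adjusted p = 0.00983). Of 7 luminal epithelial markers listed, EPCAM had no named probe, and none of the other 6 was detected on any array. An ERBB2 entry also could not be paired with a probe. Markers of cells that also make plasminogen activators or inhibitors were mostly undetected. Of 6 endothelial markers, 2 were kept (ESAM and PECAM1) and called higher, and CDH5, KDR, TEK and VWF were detected on no array. The sum over all 6 was 1950 to 2160 in shZNF395 cells and 1120 to 1240 in shControl cells. Most of it came from ESAM alone, with log2 means of 10.89 in shZNF395 and 10.03 in shControl cells. PECAM1 overlapped between the groups and was detected on 2 shControl arrays. Of 8 leukocyte or macrophage markers, 3 were kept (CD14, CSF1R and LAPTM5), and PTPRC, ITGAM, CD163, FCER1G and TYROBP were detected on no array. The kept CD14 probe and CSF1R were called higher and LAPTM5 was not called (log2 difference 0.16, adjusted p = 0.292). The sum of the leukocyte or macrophage list was 1170 to 1430 in shZNF395 cells and 892 to 1020 in shControl cells. Of 5 fibroblast markers, 2 were kept (COL1A1 and LUM), with a sum of 597 to 624 in shZNF395 cells and 366 to 415 in shControl cells. COL1A1 was called higher. LUM was below detection on all shControl arrays and passed the filter through the shZNF395 arrays alone, so it had to differ. The fibroblast sum includes LUM, so nothing is read from the gap between its ranges. The other LUM probe (ILMN_2167805) and DCN were detected on no array. Of 5 platelet markers, 2 were kept (PPBP and GP1BA) and neither was called, and PF4, GP9 and ITGA2B were detected on no array. The platelet sum was 200 to 216 in shZNF395 cells and 197 to 219 in shControl cells. The part of these markers in the results below was not tested. In RNA pooled from a culture, fewer cells expressing a gene and less RNA per cell cannot be told apart.

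All 16 member probes passed the detection filter and were detected on all 8 arrays, so none of them entered through 1 group alone. For 11 probes every shZNF395 array lay above every shControl array, a pattern shown by 23.2% of all kept probes. For 1 probe, that of SERPINE2, every shZNF395 array lay below, as for 25.8% of all kept probes, and for 4 probes the groups overlapped. Over all kept probes, 49.0% showed no overlap in either direction. The median difference over the 16 probes was 0.31 on the log2 scale, against -0.05 over all kept probes, whose median absolute difference was 0.26. Since these differences helped to choose the members, nothing is read from the comparison. In 6 members, SERPINB2, PLAT, PLAU, SERPINB8, F3 and TFPI2, every probe was higher in shZNF395 cells without overlap.

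**Figure D2:**
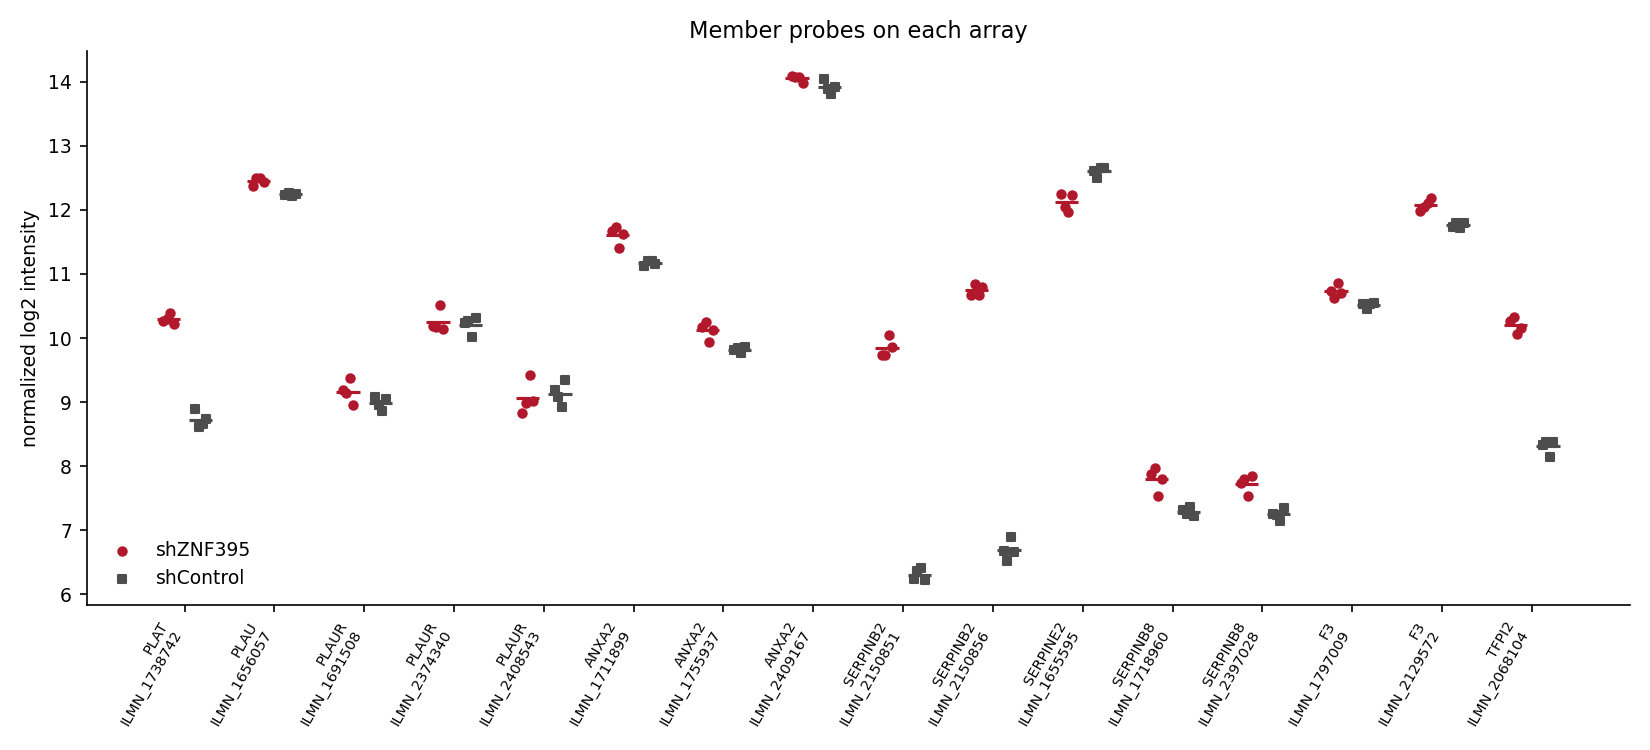
Log2 normalized intensity (y axis) of every member probe on each of the 4 shZNF395 and 4 shControl arrays, with 1 point per array and bars for the group means. SERPINB2 has the widest gap, PLAT and TFPI2 stand clearly apart, SERPINE2 is lower in shZNF395 cells, and the groups of all 3 PLAUR probes overlap.

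Of the 2 activators, PLAT differed far more than PLAU. PLAT (probe ILMN_1738742) read 10.26, 10.30, 10.39 and 10.22 on shZNF395 arrays 1 to 4, against 8.90, 8.62, 8.66 and 8.73 on shControl arrays 1 to 4. Every shZNF395 array was thus more than a log2 unit above every shControl array. PLAT averaged 10.29 ± 0.073 in shZNF395 cells and 8.73 ± 0.12 in shControl cells (SD, n = 4 each), a log2 difference of 1.56 (SE 0.075), or 2.95-fold. Among the kept probes, 164 had a larger rise. The authors' deposited table gives 1.38 for the same entry, on the scale of their own transform. The probe was paired with PLAT by that value, so the value is not a separate measurement.

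PLAU, the urokinase gene, was bright in both groups. PLAU (ILMN_1656057) read 12.38, 12.49, 12.50 and 12.44 in shZNF395 cells, against 12.23, 12.27, 12.22 and 12.25 in shControl cells. The groups did not overlap, but the gap between the lowest shZNF395 and the highest shControl array was narrow. Its mean was 12.45 ± 0.055 in shZNF395 and 12.24 ± 0.02 in shControl cells (SD, n = 4 each), a log2 difference of 0.21 (SE 0.057), or 1.15-fold.

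The urokinase receptor PLAUR, which is anchored in the membrane by a lipid tail and carries PLAU to the cell edge, overlapped between the groups on all 3 of its probes. The brightest, ILMN_2374340, read 10.19, 10.18, 10.51 and 10.14 in shZNF395 cells, against 10.24, 10.26, 10.02 and 10.31 in shControl cells. It was the array shZNF395 3 that stood high and the array shControl 3 that stood low, and the difference of the means was 0.05 (SE 0.096). That difference turned to -0.03 without shZNF395 3, to -0.01 without shControl 3 and to -0.09 without both. The same arrays stood out on ILMN_2408543, with 8.83, 8.98, 9.43 and 9.02 in shZNF395 and 9.19, 9.08, 8.92 and 9.34 in shControl cells. That probe differed by -0.07 (SE 0.13), and by -0.26 without both arrays numbered 3. On ILMN_1691508 PLAUR averaged 9.17 ± 0.17 in shZNF395 and 8.99 ± 0.1 in shControl cells (SD, n = 4 each), a difference of 0.18 (SE 0.09). The 3 probes therefore did not share a sign.

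ANXA2, the surface dock for plasminogen and PLAT, was higher on 2 of its 3 probes without overlap. ILMN_1711899 read 11.67, 11.73, 11.41 and 11.63 in shZNF395 cells, against 11.12, 11.20, 11.21 and 11.16 in shControl cells, a log2 difference of 0.44 (SE 0.075) or 1.35-fold. ILMN_1755937 averaged 10.12 ± 0.13 in shZNF395 and 9.82 ± 0.045 in shControl cells (SD, n = 4 each), a difference of 0.30 (SE 0.074). On both probes shZNF395 3 was the lowest array of its group. The third probe, ILMN_2409167, read 14.09, 14.07, 14.07 and 13.98 in shZNF395 cells, against 14.05, 13.89, 13.81 and 13.91 in shControl cells. Here the groups overlapped, and the difference was 0.14 (SE 0.067). Its raw signal of 15246.7 to 17851.4 in shZNF395 and 14714.3 to 17796.7 in shControl cells lay near the top of the arrays, whose highest probe reached 19874.9 to 22679.1. ANXA2 has near-identical pseudogene copies that a probe may also read. The probes of ANXA2P1 differed by 0.14 and 0.28, that of ANXA2P2 by 0.02 and that of ANXA2P3 by -0.01 on the log2 scale, so the share of the ANXA2 signal that came from the copies is uncertain.

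Among the inhibitors, SERPINB2 had the widest difference of the set. SERPINB2, also called PAI2, inhibits urokinase and tissue plasminogen activator outside the cell, and most of its protein stays inside. Its probe ILMN_2150856 read 10.67, 10.85, 10.68 and 10.80 on shZNF395 arrays 1 to 4, against 6.68, 6.53, 6.89 and 6.67 on shControl arrays 1 to 4. Raw signals were 1566.6 to 1926.7 in shZNF395 cells and 120.8 to 153.3 in shControl cells, and the probe was detected on every array. The means of 10.75 ± 0.089 in shZNF395 and 6.69 ± 0.15 in shControl cells (SD, n = 4 each) differed by 4.06 (SE 0.084), or 16.7-fold. None of the 17184 kept probes had a larger rise.

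The other SERPINB2 probe, ILMN_2150851, read 9.73, 9.74, 10.05 and 9.86 in shZNF395 cells, against 6.24, 6.36, 6.41 and 6.23 in shControl cells. It differed by 3.54 (SE 0.084), or 11.6-fold, and 3 kept probes had a larger rise. Both probes were dim in shControl cells, so the size depends on how background is treated: without background correction the log2 differences were 3.55 for ILMN_2150856 and 2.93 for ILMN_2150851. The authors' deposited table gives 2.86 for the entry that joins both probes, on the scale of their own transform. The probes were paired with SERPINB2 by that value, so it is not a separate measurement.

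SERPINB8, an intracellular serpin that inhibits furin-type and trypsin-like proteases, was higher by about the same amount on both probes. ILMN_1718960 read 7.88, 7.97, 7.54 and 7.80 in shZNF395 cells, against 7.32, 7.25, 7.37 and 7.23 in shControl cells, a difference of 0.50 (SE 0.09) or 1.42-fold. ILMN_2397028 averaged 7.73 ± 0.14 in shZNF395 and 7.25 ± 0.082 in shControl cells (SD, n = 4 each), a difference of 0.48 (SE 0.081). The groups did not overlap on either, and shZNF395 3 was again the lowest array of its group.

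SERPINE2, also called protease nexin, inhibits thrombin, urokinase and plasmin at the cell surface and was the only member lower in shZNF395 cells on every probe without overlap. It read 12.25, 12.05, 11.97 and 12.23 in shZNF395 cells, against 12.61, 12.49, 12.65 and 12.66 in shControl cells (ILMN_1655595). The means were 12.12 ± 0.14 in shZNF395 and 12.60 ± 0.076 in shControl cells (SD, n = 4 each), a difference of -0.48 (SE 0.079), which is 71.8% of the shControl level. Falls larger than this were common, with 1934 kept probes beyond it.

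TFPI2, the matrix inhibitor of plasmin, read 10.27, 10.33, 10.06 and 10.15 in shZNF395 cells, against 8.33, 8.38, 8.15 and 8.38 in shControl cells (ILMN_2068104). All shZNF395 arrays were far above all shControl arrays. The means of 10.20 ± 0.12 in shZNF395 and 8.31 ± 0.11 in shControl cells (SD, n = 4 each) differed by 1.89 (SE 0.082), or 3.71-fold, and 79 kept probes had a larger rise.

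F3, the cell-surface trigger of coagulation, was higher on both probes by a small amount. ILMN_2129572 read 11.99, 12.04, 12.11 and 12.18 in shZNF395 cells, against 11.74, 11.80, 11.72 and 11.79 in shControl cells, a difference of 0.32 (SE 0.063) or 1.25-fold. ILMN_1797009 averaged 10.73 ± 0.1 in shZNF395 and 10.51 ± 0.044 in shControl cells (SD, n = 4 each), a difference of 0.21 (SE 0.067). The groups did not overlap on either probe.

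**Figure D3:**
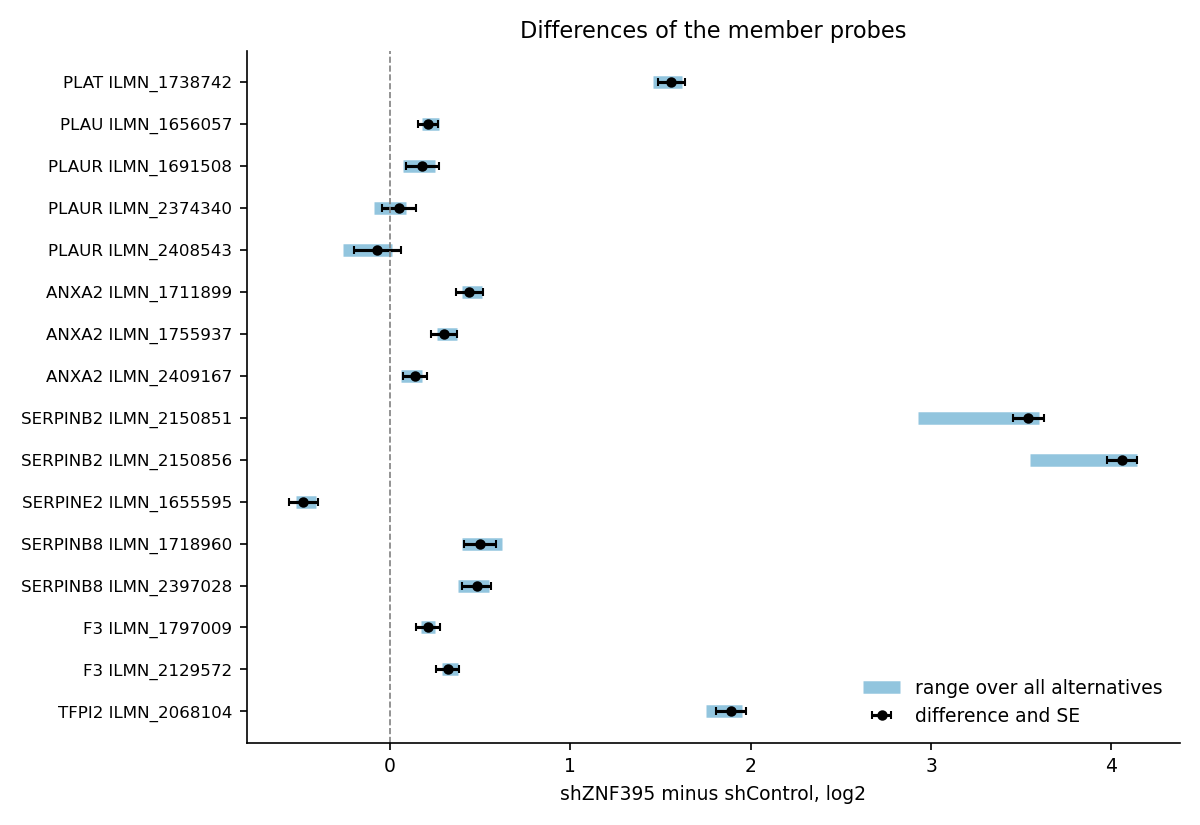
Log2 difference, shZNF395 minus shControl (x axis), of each member probe, as a point with its standard error from the fit, over a blue band for the range under all alternative settings. The SERPINB2 probes lie at 3.54 and 4.06, TFPI2 at 1.89 and PLAT at 1.56, SERPINE2 lies at -0.48, and the PLAUR probes lie on both sides of 0.

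Within the groups the members did not vary in the same way. The array shZNF395 3 was the highest of its group for 7 of the 16 member probes and the lowest for 6, against 31.1% and 33.8% of all kept probes. It was highest on all 3 PLAUR probes, on PLAU, on PLAT, on ILMN_2150851 of SERPINB2 and on ILMN_1797009 of F3, and lowest on SERPINE2, TFPI2, both SERPINB8 probes and a pair of ANXA2 probes. The array shControl 3 was the lowest of its group for 9 of the 16 probes (27.1% of all kept probes), and shControl 4 the highest for 7 (23.1% of all kept probes). These 2 arrays numbered 3 also stood apart in the number of probes detected, 17191 against 16834 to 16882 for the other shZNF395 arrays and 16476 against 17265 to 17406 for the other shControl arrays. Without both of them ILMN_2374340 of PLAUR turned its direction and the other 15 member probes kept theirs.

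**Figure D4:**
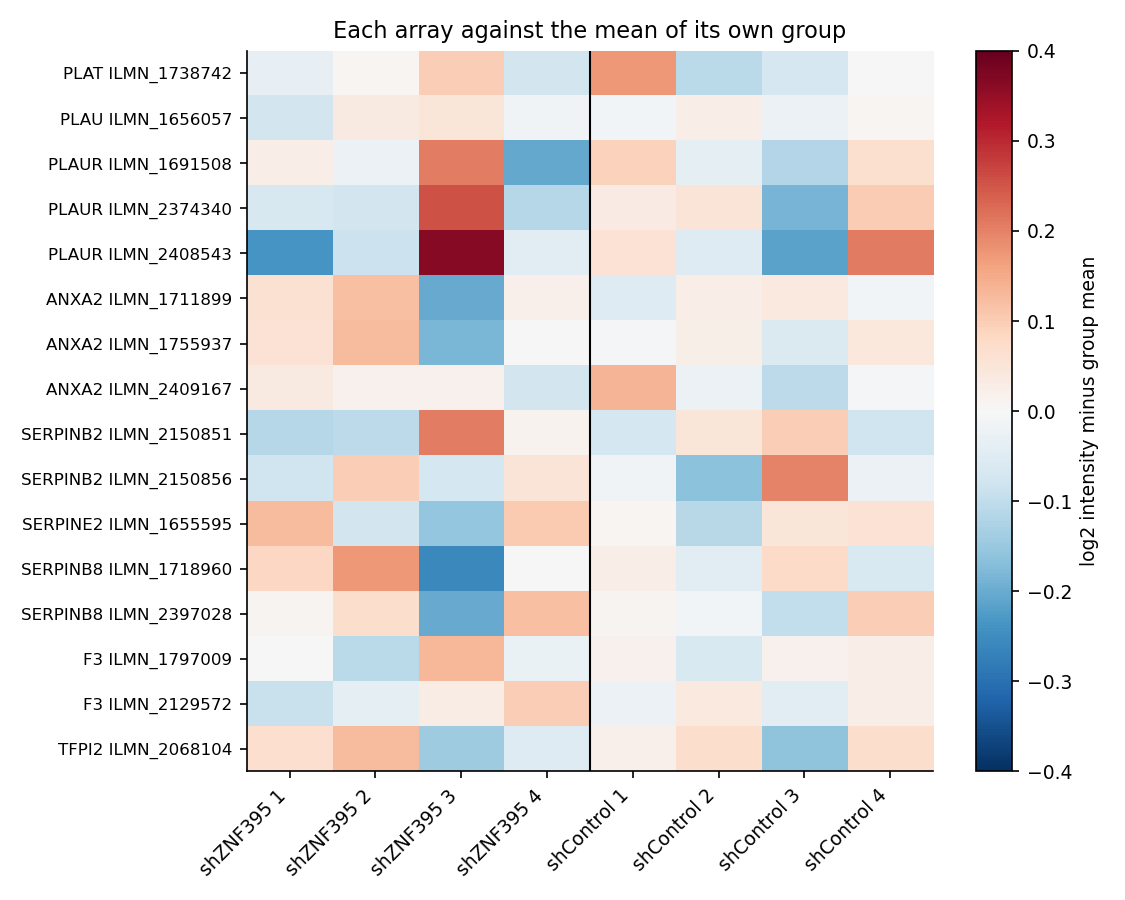
Deviation of each array from the mean of its own group (log2, colour scale) for the 16 member probes, with shZNF395 arrays left of shControl arrays. The column of shZNF395 3 is high on the PLAUR probes and low on the rows of SERPINB8, SERPINE2, TFPI2 and of ANXA2 probes ILMN_1711899 and ILMN_1755937.

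The genes whose values over the 8 arrays were most like those of a member were found by Pearson's r, which here mostly reflects the gap between the groups. For SERPINB2 they were SUN3, CYSTM1 and VSIR, each with r = 0.999. For PLAT they were FBXO6 and PROS1 with 0.998 and SEL1L3 with 0.997. PROS1, the anticoagulant protein S, averaged 10.22 ± 0.0093 in shZNF395 and 8.70 ± 0.12 in shControl cells (SD, n = 4 each). For F3 they were FAM174B and C3orf52 with 0.99 and RC3H2 with 0.989.

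The other genes of the pathway were taken from 7 lists of 96 genes, of which 93 had a named probe and 43 were measured, each by its brightest kept probe. Of these 43, 6 were below detection on all shControl arrays and passed the filter through the shZNF395 arrays alone, so they had to differ and their values are given without a test. Of the other 37, 21 were called higher and 4 lower in shZNF395 cells (limma adjusted p under 0.05, adjusted over all kept probes), and the median log2 difference was 0.28. Over all 43 the median was 0.47, and 0.46 with the 6 at their lower bounds. Among 9819 named genes other than the members, which include genes that passed through 1 group alone, 30.6% were called higher and 29.0% lower, with a median of -0.01. The lists were written with earlier results of these arrays known. The lower bounds below hold for background-corrected values, and the smaller differences without that correction are given beside them.

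**Figure D5:**
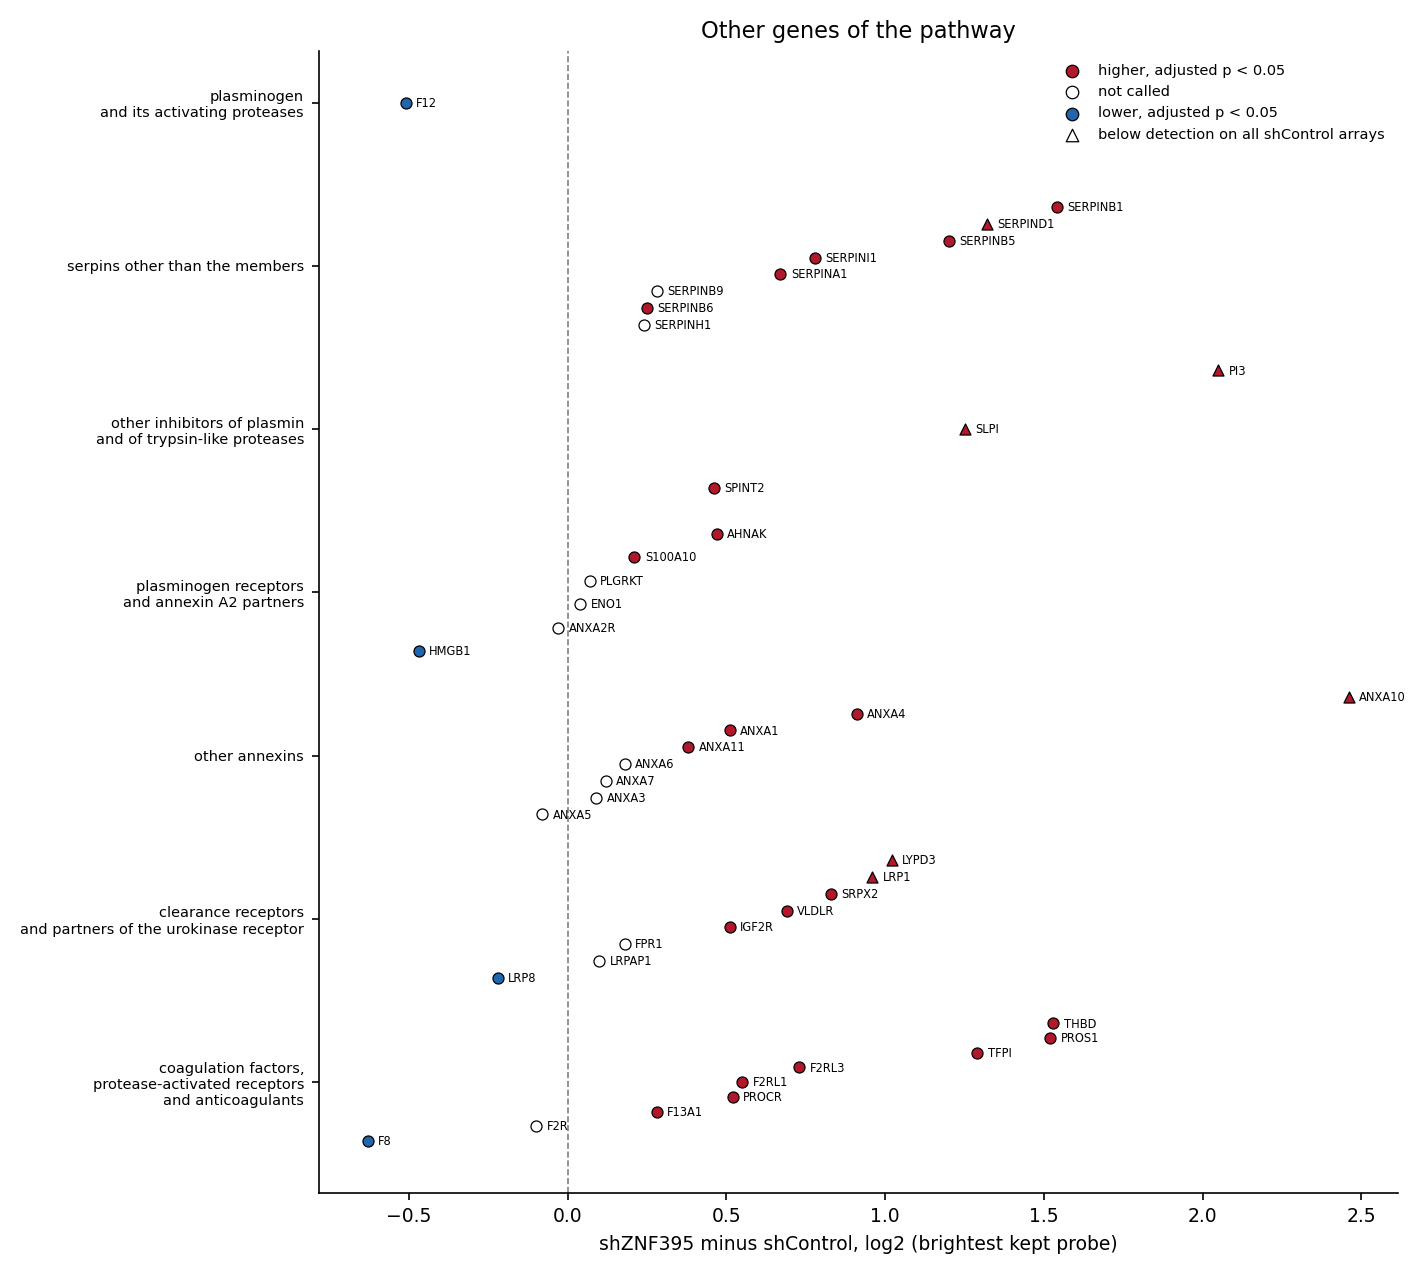
Log2 difference, shZNF395 minus shControl (x axis), of the brightest kept probe of each measured pathway gene, in 7 rows by list; filled points were called (red higher, blue lower) and triangles mark genes below detection on all shControl arrays. Most points lie right of 0, with F12, HMGB1, LRP8 and F8 called lower.

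Plasminogen and the proteases that can activate it besides PLAT and PLAU mostly did not pass the detection filter. Of 8 genes with a probe only F12, coagulation factor XII, was measured, and it had a log2 difference of -0.51 (SE 0.1, adjusted p = 0.00167), with 7.28 ± 0.18 in shZNF395 and 7.79 ± 0.16 in shControl cells (SD, n = 4 each). PLG itself was detected on 0 of the 8 arrays. PLG is made mainly by the liver.

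Of the serpins other than the members, 8 of 30 were measured, 1 of them through the shZNF395 arrays alone. Of the other 7, 5 were called higher, none was called lower and 2 were not called, with a median of 0.67. SERPINB1, an intracellular inhibitor of neutrophil elastase, was 1.54 higher (SE 0.067, adjusted p = 3.76e-08), and SERPINB5, known as maspin, was 1.20 higher (SE 0.076, adjusted p = 4.73e-07). SERPIND1, heparin cofactor II, was below detection in shControl cells and at least 1.42-fold higher in shZNF395 cells, with a log2 difference of 0.68 without background correction. SERPINI1, SERPINA1 and SERPINB6 were called higher with differences of 0.78, 0.67 and 0.25.

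SERPINB2 and SERPINB8 lie in a row of related clade B serpin genes on chromosome 18, in the order SERPINB5, SERPINB12, SERPINB13, SERPINB4, SERPINB3, SERPINB11, SERPINB7, SERPINB2, SERPINB10 and SERPINB8. SERPINB5, SERPINB2 and SERPINB8 passed the detection filter. The other 7 of these genes did not pass it, although SERPINB7 and SERPINB10 are the direct neighbours of SERPINB2 among them.

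The other inhibitors of plasmin and trypsin-like proteases were measured for 3 of 7 genes, 2 of them through the shZNF395 arrays alone. The other, SPINT2, a membrane Kunitz inhibitor, was 0.46 higher (SE 0.062, adjusted p = 0.000103). PI3, known as elafin, and SLPI, both elastase inhibitors, were below detection on all shControl arrays. PI3 was at least 2.64-fold and SLPI at least 1.28-fold higher in shZNF395 cells, with log2 differences of 1.11 for PI3 and 0.69 for SLPI without background correction; for PI3 that is below the bound.

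All 6 plasminogen receptors and annexin A2 partners were measured; 2 were called higher, 1 lower and 3 not, with a median of 0.05. AHNAK, a large scaffold that binds the annexin A2 complex, was 0.47 higher on its brightest probe (SE 0.087, adjusted p = 0.000877). Its dimmer kept probes differed by more, with 1.36 on ILMN_1752159 and 1.05 on ILMN_1792495. The last of these was below detection on all shControl arrays. S100A10, the partner that anchors plasminogen, was 0.21 higher (SE 0.057, adjusted p = 0.00959), with 13.91 ± 0.022 in shZNF395 and 13.70 ± 0.053 in shControl cells (SD, n = 4 each). That call was lost when arrays were scaled to their 75th percentile (0.13, adjusted p = 0.0936). HMGB1, a nuclear protein that also binds plasminogen, was lower, with a log2 difference of -0.47 (SE 0.087, adjusted p = 0.00099).

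Of the other annexins, 8 of 12 were measured, 1 of them through the shZNF395 arrays alone. Of the other 7, 3 were called higher, none was called lower and 4 were not called, with a median of 0.18. ANXA10 was below detection in shControl cells and at least 4.14-fold higher in shZNF395 cells, a bound of 2.05 on the log2 scale; without background correction the difference was 1.45, below that bound. ANXA4 was 0.91 higher (SE 0.071, adjusted p = 2.2e-06) and ANXA1, known for its role in resolving inflammation, 0.51 higher (SE 0.058, adjusted p = 3.45e-05). ANXA11 was called higher with a difference of 0.38.

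The clearance receptors and partners of the urokinase receptor take inhibited activators into the cell or bind PLAUR. Of 12 genes 8 were measured, 2 of them through the shZNF395 arrays alone. Of the other 6, 3 were called higher, 1 lower and 2 not, with a median of 0.34. LRP1, the main clearance receptor, was below detection in shControl cells, as was LYPD3, a relative of PLAUR. LRP1 was at least 1.58-fold and LYPD3 at least 1.65-fold higher in shZNF395 cells, bounds of 0.66 and 0.72 on the log2 scale. Without background correction the differences were 0.47 for LRP1 and 0.50 for LYPD3, below those bounds. SRPX2, a secreted ligand of PLAUR, was 0.83 higher (SE 0.079, adjusted p = 9.01e-06). VLDLR and IGF2R were called higher with differences of 0.69 and 0.51, and LRP8 was called lower with -0.22. A dimmer kept probe of LRP8 overlapped between the groups and was not called (-0.12, limma adjusted p = 0.281).

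Of the coagulation factors, protease-activated receptors and anticoagulants, 9 of 18 with a probe were measured; 7 were called higher, 1 lower and 1 not, with a median of 0.55. The 3 with the smallest adjusted p were anticoagulants. PROS1 was 1.52 higher (SE 0.069, adjusted p = 4.63e-08). TFPI, the inhibitor of the tissue factor complex, was 1.29 higher (SE 0.075, adjusted p = 2.63e-07), with 10.25 ± 0.14 in shZNF395 and 8.96 ± 0.037 in shControl cells (SD, n = 4 each). THBD, thrombomodulin, was 1.53 higher (SE 0.11, adjusted p = 9.54e-07) and was detected on 7 of the 8 arrays. It was dim in shControl cells, and its difference was 0.89 without background correction and 1.00 with an offset of 50. F2RL3, F2RL1 and PROCR, receptors for thrombin, trypsin-like proteases and protein C, were called higher with differences of 0.73, 0.55 and 0.52, while F8, coagulation factor VIII, was called lower with -0.63. The coagulation factor F13A1 was called higher with a difference of 0.28, although its groups overlapped. Like THBD, F2RL3, F8 and F13A1 were dim and were each detected on 7 of the 8 arrays. Another probe of F2RL3 and another of F8 were detected on no array, with differences of -0.06 and 0.06.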

How the data were processed

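Total RNA of 8 samples was labelled with biotin and read on Illumina BeadChips, per the labels' protocols. The deposited intensity table is not normalized and gives a signal and a detection p-value per probe. The authors' series matrix gives normalized intensities. Their deposited table gives log2-like fold changes by accession, processed before deposit with lumi (no version named), per the submitters' processing notes. These fold changes are on the scale of a transform with a slope of 1.042 against log2, so they are not plain log2 differences. The array's build and probe sequences were not used here. The intensities were background-corrected with limma 3.58.1 (normexp, offset 16), quantile normalized and put on the log2 scale in R 4.3.3. Probes with a detection p-value under 0.01 on at least 4 arrays were kept, 17184 of 47323. Groups of 4 arrays were compared with limma and Benjamini-Hochberg adjustment over all kept probes. The same fit was afterwards run on simulated data drawn with the means and spreads of these arrays, and its outcome is not given here. The number of arrays limits the precision.

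The files do not pair probes with genes. The pairing was recovered from values: the authors' fold changes equal differences of a 3-parameter transform of the series matrix values. Of 39747 entries, 33137 (83.4%) matched 1 probe within 1e-09, against 0.0391% after shifting the values; 3656 others matched the mean of 2 probes. SERPINB2, F3, one pair for PLAUR and one for ANXA2 rest on such means, with at most 0.1 pairs expected by chance. Other genes named above also rest on means, among them S100A10, AHNAK, HMGB1, TFPI, SERPINI1, SERPINA1, SERPINB6, F2RL1, F2RL3, F8 and LUM. For genes other than the members, pairs were taken with up to 0.5 expected by chance. Symbols came from RefSeq (GRCh38.p14), for 23203 probes. Distinct probes of a gene are given separately for members; for other genes the brightest kept probe is used. A probe below detection on all arrays of a group was set at the lowest detected signal of each array, and its fold is a lower bound for these background-corrected values.

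The members and lists were chosen with earlier results of these data known. Named were all member probes, ZNF395 and TARBP2, and in each pathway list up to 3 called genes with the smallest adjusted p, plus PLG, S100A10, TFPI and LRP1, with the 3 genes most like SERPINB2, PLAT and F3; ANXA2 pseudogenes, markers and other called pathway genes were added as descriptions. Alternatives changed the background correction, scaling, filter, array weights, moderation and arrays. Promoter windows were 250 bases long; that of PLAT was not analysed here. A pair of genes was taken out of the pathway lists after the fit and is not reported here.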

Additional observations from a re-analysis of the deposited data

Results flagged for a closer look

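In 5 of 86 groups of 4 values tested, 1 array lay far from the other arrays of its group relative to the group's range, and chance gives about 1 in 20. PLAUR (ILMN_2374340) read 10.51 on shZNF395 3, against 10.14 to 10.19 on the other shZNF395 arrays. SERPIND1 read 4.56 on shControl 1, against 4.39 to 4.41 on the other shControl arrays, all below detection. S100A10 read 13.94 on shZNF395 1, with all others of the group at 13.9. The array shZNF395 3 detected 17191 probes, against 16834 to 16882 on the other shZNF395 arrays. The array shControl 3 detected 16476 probes, against 17265 to 17406 on the other shControl arrays.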

How the results depend on the processing

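The counts of calls stayed within 1.5 times their main value under every alternative run. The pathway counts hold the 6 genes that had to differ, except where detection on all 8 arrays was required. Over all kept probes, 3928 to 4982 were called higher and 4334 to 5702 lower in shZNF395 cells, and with 1 array left out 3992 to 4447 higher and 4581 to 5238 lower. Cyclic loess was the one setting with more higher (4982) than lower (4334) calls. Of the member and named pathway values, 5 changed sign, all of PLAUR. PLAUR on ILMN_2374340 was -0.03 with array weights and -0.03 without shZNF395 3, -0.01 without shControl 3 and -0.09 without both arrays numbered 3, and on ILMN_2408543 it was 0.01 without shZNF395 1. With 1 array left out these probes ranged from -0.03 to 0.09 and from -0.19 to 0.01. For array weights, the cause was not tested. The SERPINB2 differences ranged from 3.55 to 4.14 and from 2.93 to 3.60, TFPI2 from 1.75 to 1.95, PLAT from 1.46 to 1.62 and SERPINE2 from -0.52 to -0.41 over all alternatives. The omission of both arrays numbered 3 was chosen after seeing the data. Dim probes, such as SERPINB2 and THBD in shControl cells, are limited by signal over background. ANXA10, PI3, LRP1 and LYPD3 differed by 1.61, 1.21, 0.54 and 0.57 with an offset of 50, below their bounds. With detection required on all 8 arrays, 18 pathway genes were called higher and 3 lower.

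Samples of both groups share the numbers 1 to 4, but the deviations of same-numbered arrays correlated at -0.107, 0.00548, -0.422 and -0.0865, so the numbers are not taken to pair the samples. With the number as a replicate block, 3958 probes were called higher and 4582 lower. Over all 43 measured pathway genes 27 were called higher and 4 lower, the same counts as without the block. Those 27 include the 6 genes below detection on all shControl arrays, which had to differ.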
